A study of Mus musculus with 26 samples.

Results

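The candidate genes of the NOD-derived Idd3 and Idd5 intervals were followed with age in the lacrimal gland of the C57BL/6.NOD-Aec1Aec2 mouse. These were Adad1, Il2, Il21 and Fgf2 of Idd3 on chromosome 3, and Cd28, Ctla4, Icos, Arpc2, Aamp and Slc11a1 of Idd5 on chromosome 1. All probe sets annotated to 1 of these genes and to no other gene were taken, which gave 15 of the 45101 probe sets on the array and 10 of the 18194 genes it names. A further probe set listed for Il2 together with Ntan1 was left out for that reason. Most of these genes are known as immune genes, and 13 of the 15 probe sets stayed near background on every array. Aamp and 1 of the Arpc2 probe sets were well above it, and Aamp was lower at 16 and 20 weeks than at 8 and 12 weeks.

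All animals were C57BL/6.NOD-Aec1Aec2 males, a congenic strain in which Aec1 (Idd3) and Aec2 (Idd5) come from the NOD mouse and the rest of the genome from C57BL/6. The 26 Affymetrix arrays cover 4 weeks (n = 4, before disease), 8 weeks (n = 6, pre-clinical), 12 weeks (n = 6, first leukocyte influx), 16 weeks (n = 5, early clinical autoimmunity) and 20 weeks (n = 5, loss of secretion). No strain without the NOD intervals was analysed here, so age, disease stage and the intervals' alleles cannot be told apart. Whole glands were measured, so fewer cells of a type and less RNA per cell cannot be told apart either. No source used here says whether a replicate was 1 mouse or several, so p-values measure only the spread between these samples.

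Idd3 and Idd5 are regions first mapped as loci of insulin-dependent diabetes in the NOD mouse. IL-2, the product of Il2, is a growth factor for activated T cells and keeps regulatory T cells alive, and IL-21 is made by helper T cells and drives B cells towards antibody secretion. CD28 on T cells receives the activating signal of CD80 and CD86, CTLA-4 binds the same ligands and restrains the response, and ICOS is a related receptor induced on activated T cells. Slc11a1, also called Nramp1, is a metal ion transporter of the macrophage phagosome. Arpc2 is a subunit of the Arp2/3 complex, which nucleates branched actin filaments, and Aamp is a WD-repeat protein described in cell migration. Fgf2 is a growth factor, and Adad1 is a testis protein of germ cells with an adenosine deaminase domain.

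RefSeq's table (GRCm38.p6, the C57BL/6J assembly) gave the 300 bases around the start of 7 of the 10 genes. The sequences just upstream of 3 of them are shown because they set 2 genes that read near background, Il2 and Ctla4, beside Arpc2, which read well above it. They are the C57BL/6J letters and not the NOD letters of this strain. The Il2 stretch is chr3:37125955-37126204 on the minus strand, the Ctla4 stretch is chr1:60908775-60909024 on the plus strand and the Arpc2 stretch is chr1:74236267-74236489 on the plus strand, each written 5′ to 3′ up to the outermost annotated start. In Il2 and Ctla4 the capitals mark TATAA and GGAAA, searched on both strands, and no match of one overlaps a match of the other. In Arpc2 the capitals mark CG.
Il2: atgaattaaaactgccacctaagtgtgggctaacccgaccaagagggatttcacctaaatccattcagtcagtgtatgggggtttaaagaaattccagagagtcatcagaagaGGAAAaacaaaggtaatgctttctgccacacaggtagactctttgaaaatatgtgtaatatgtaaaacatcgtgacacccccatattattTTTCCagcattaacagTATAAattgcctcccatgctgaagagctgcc
Ctla4: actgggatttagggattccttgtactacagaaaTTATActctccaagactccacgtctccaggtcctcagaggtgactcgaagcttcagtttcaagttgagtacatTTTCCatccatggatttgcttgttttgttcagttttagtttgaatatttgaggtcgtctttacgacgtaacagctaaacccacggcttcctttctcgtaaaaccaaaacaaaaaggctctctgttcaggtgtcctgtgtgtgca
Arpc2: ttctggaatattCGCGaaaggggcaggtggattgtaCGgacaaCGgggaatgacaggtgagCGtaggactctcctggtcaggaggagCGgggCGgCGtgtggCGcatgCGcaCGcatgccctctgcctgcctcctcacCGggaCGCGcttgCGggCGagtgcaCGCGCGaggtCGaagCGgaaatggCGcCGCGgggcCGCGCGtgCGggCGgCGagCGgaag

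The Il2 stretch held GGAAA at 2 places and TATAA at 1, and the Ctla4 stretch held each at 1 place. The Arpc2 stretch, where these are not marked, held GGAAA at 1 place and no TATAA. The 300 bases of Aamp, which also read well above background, held GGAAA at 2 places. Of the 27025 promoters of 300 bases in the table, 61.3% hold GGAAA and 25.5% hold TATAA, so neither match is rare. The promoters differed more in CG. Arpc2 had 40 CG in its 300 bases, more than 96.2% of all promoters, and Aamp and Fgf2 had 24 each, more than 80.0%. Il21 had 5, Slc11a1 had 7, Ctla4 had 8 and Il2 had 2, beside a median of 7 over all promoters. Fgf2 had as many CG as Aamp, although the Fgf2 probe set read near background and the Aamp probe set did not.

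Values are log2 expression as deposited. A probe set was called near background when it lay less than 1 log2 unit above its array's median on all 26 arrays, since no detection calls were used here. Array medians lay between 2.94 and 3.22. By the same rule 55.3% of the 34958 probe sets with a single gene symbol are near background, so being there is common on this array. Libraries were compared before the genes. On 16 weeks replicate 4 and 20 weeks replicate 1 the spread of values was narrower than on the other arrays (SD 1.68 and 1.36, against 1.78 to 2.27). Means of 10 lacrimal acinar markers such as Aqp5 and Bhlha15 were 7.35 and 8.11 there, against 9.74 to 10.82 on the other 24 arrays. Results that rest on these 2 arrays are given with and without them. A mean of 5 salivary gland markers ranged from 3.77 to 12.11 over the arrays and was wide at every age.

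The Idd3 genes were near background at every age. The Il2 probe set 1449990_at read 3.56, 3.43, 3.55 and 3.41 at 4 weeks. It read 3.25 to 3.40 at 8 weeks (median 3.31) and 3.20 to 3.54 at 12 weeks (median 3.27). At 16 weeks the values were 3.45, 3.30, 3.50, 3.37 and 3.27, and at 20 weeks 3.86, 3.47, 3.42, 3.32 and 3.30. All 4 week values (3.41 or more) lay above all 8 week values (3.40 or less), and every other pair of ages overlapped. The difference at 8 against 4 weeks was -0.17 ± 0.09 log2 (SE, limma adjusted p = 0.405, with 1.04% of probe sets called). With each array's median subtracted, 4 and 8 weeks overlapped too. The 1 value that stood out, 3.86, was from 20 weeks replicate 1, which also has the highest array median. With the medians subtracted this array was still the highest for Il2, at 0.65. The F test over the 5 ages (limma, Benjamini-Hochberg over the 20110 probe sets kept) gave an adjusted p of 0.283 for Il2.

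Il21, the neighbour of Il2 on chromosome 3, had 2 probe sets that lay below the array median on all 26 arrays. Probe set 1447288_at ranged from 2.59 to 2.94 and probe set 1450334_at from 2.50 to 2.87. Their means at 12 weeks, when leukocytes are said to enter the gland, were 2.71 ± 0.07 and 2.58 ± 0.07 (SD, n = 6). At 4 weeks the same probe sets averaged 2.82 ± 0.05 and 2.70 ± 0.07 (SD, n = 4). The values of the 2 ages overlapped, and both means were lower at the age of influx, each by 0.12 log2. With each array's median subtracted the differences were -0.039 and -0.041 log2. Neither was called (limma without a filter, adjusted p = 0.326 and 0.195, with 0.741% of probe sets called). Fgf2 ranged from 2.61 to 3.10 and Adad1 from 2.44 to 3.00, also below the array median on every array, and both were highest on 20 weeks replicate 1.

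The costimulatory receptors of Idd5 were near background as well. The Ctla4 probe set 1419334_at read 3.30, 3.37, 3.43 and 3.33 at 4 weeks, 3.10 to 3.31 at 8 weeks (median 3.22) and 3.12 to 3.32 at 12 weeks (median 3.23). It read 3.35, 3.24, 3.29, 3.30 and 3.33 at 16 weeks and 3.54, 3.33, 3.34, 3.33 and 3.20 at 20 weeks. The ages overlapped, and the adjusted p of the F test was 0.234. With arrays weighted by quality the F test for Ctla4 passed (limma adjusted p = 0.0163), but so did 63% of all probe sets kept. Its difference of -0.13 log2 at 8 against 4 weeks also passed in that fit (adjusted p = 0.0126), where 34.2% were called. Passing was common there and is no result about Ctla4.

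Icos was read by 3 probe sets, none of which lay above the array median on any array. Probe set 1421930_at ranged from 2.01 to 2.24 and probe set 1421931_at from 2.62 to 3.03. The third, 1436598_at, read 2.43 on 12 weeks replicate 4, while the other 12 week arrays read 1.95 to 2.03. Icos probe set 1421930_at read 2.01 there, its lowest value of all 26 arrays. Of the 2 Cd28 probe sets, 1437025_at also had its highest 12 week value on that array, 2.93 against 2.44 to 2.54 on the other 5. The second Cd28 probe set, 1417597_at, read 2.41 on the same array, its lowest value of all 26. That array also had the lowest median of the 26, 2.94. With the medians subtracted, neither 1421930_at nor 1417597_at was at its lowest there.

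Means of lymphocyte markers were high on that array too. The mean of 12 T cell markers was 3.39 on 12 weeks replicate 4, while the other 12 week arrays gave 2.70 to 2.93. The mean of 7 B cell markers was 4.32 there, while the others gave 2.60 to 2.77. Of these 7 genes, 4 were near background on all arrays, and the 1 tested did not pass the limma F test. The part of lymphocytes in the Cd28 and Icos readings was not tested. On 16 weeks replicate 3 the same Cd28 probe set reached 3.37, while the other 16 week arrays gave 2.49 to 2.55. There the T cell marker mean was 2.89, within the 2.82 to 2.95 of the other 4, and probe set 1417597_at read 2.69. T cell markers as a list averaged 2.94 at 4 weeks, 2.82 at 8, 2.92 at 12, 2.89 at 16 and 2.97 at 20 weeks. Of its 12 genes, 9 were near background on all arrays and none of the 5 tested passed the limma F test (1 at an unadjusted p under 0.05).

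**Figure D1:**
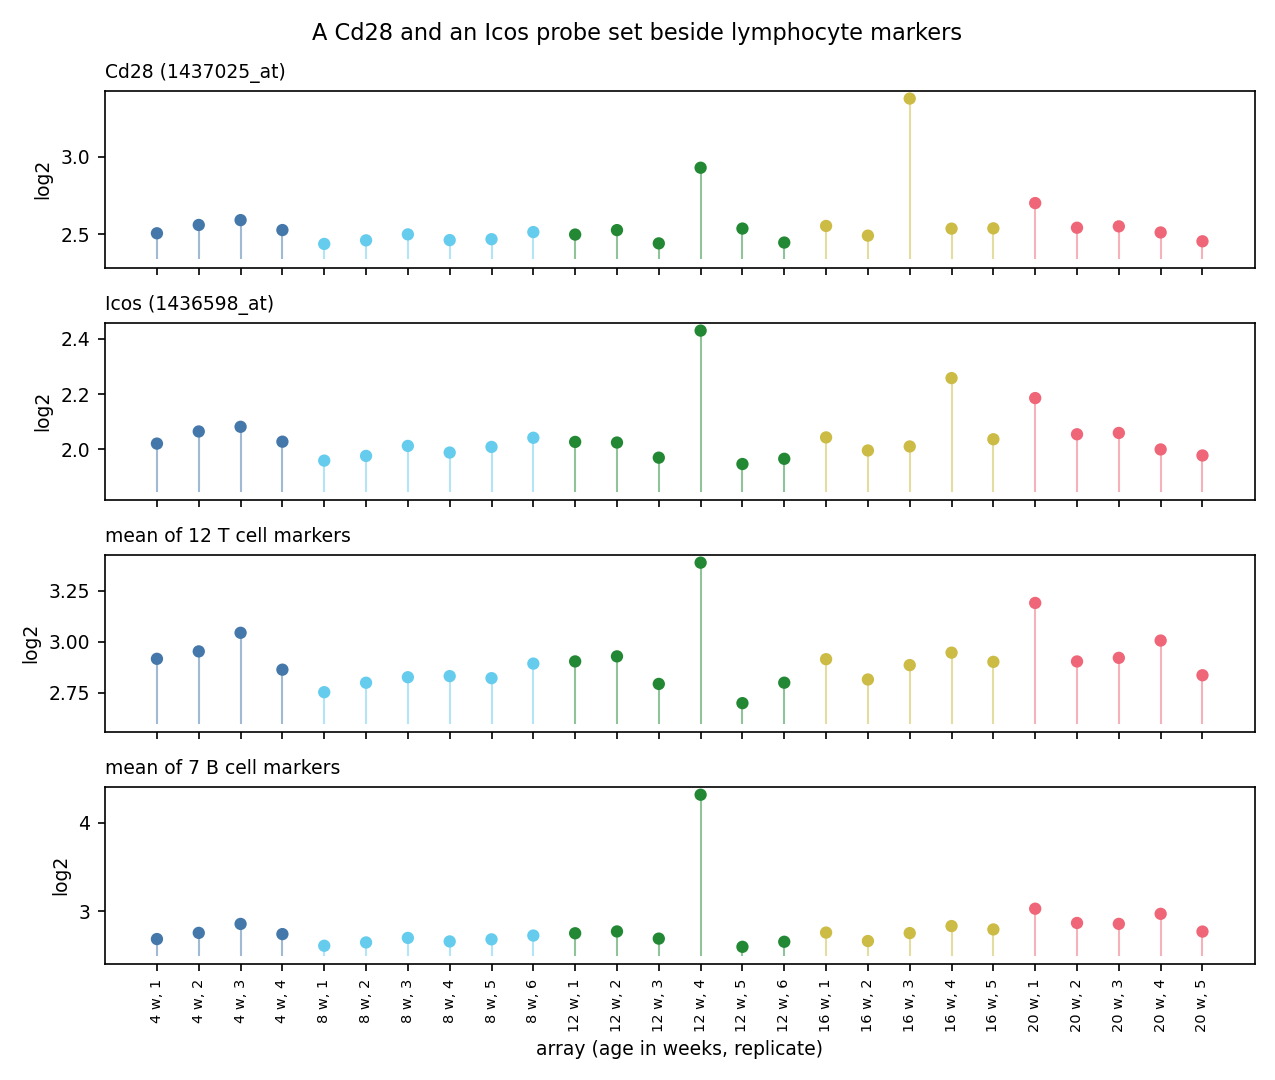
Log2 expression of Cd28 probe set 1437025_at, Icos probe set 1436598_at, and the means of 12 T cell and 7 B cell markers on each of the 26 arrays, ordered by age and replicate. Each point is 1 array and the axes do not start at 0. On 12 weeks replicate 4 all 4 panels are above the other arrays of that age, whereas the Cd28 value of 3.37 on 16 weeks replicate 3 has no counterpart in the other panels. The Cd28 and Icos probe sets were chosen because they read high on 12 weeks replicate 4, so their height there is no result. Cd28 1417597_at and Icos 1421930_at, not shown, had their lowest values of all 26 arrays there. It is the array with the lowest median, and neither was at its lowest there once medians were subtracted.

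Slc11a1 was near background, as were 2 of 12 macrophage marker genes, while the other 10 were not. Its probe set 1420361_at read 2.95, 2.99, 3.03 and 2.84 at 4 weeks, 2.93 to 3.43 at 8 weeks (median 3.00) and 2.86 to 3.24 at 12 weeks (median 3.02). It read 3.06, 3.13, 2.96, 2.96 and 2.99 at 16 weeks, and 3.10, 3.14, 3.01, 2.96 and 2.96 at 20 weeks. The ages overlapped, and the F test gave an adjusted p of 0.862. The mean of 12 macrophage markers, which include the complement genes C1qa, C1qb and C1qc, was 6.67 at 8 weeks and 4.72 at 4 weeks, and 6 of the 10 tested rose (1.04% of all probe sets were called in that comparison). The highest Slc11a1 value, 3.43, was on 8 weeks replicate 3, where the macrophage markers averaged 7.01, within the 6.17 to 7.07 of the other arrays of that age.

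All 338 values of the 13 near-background probe sets lay between 1.11 log2 below and 0.65 log2 above the array median. The largest difference between any 2 age means was 0.22 log2. Of the 13, 10 were highest on 20 weeks replicate 1, the array with the highest median, and 5 were once the array's median had been subtracted. Without a filter on low values, none of the 13 passed the F test, where 6.96% of 34958 probe sets did. The lowest adjusted p was 0.0791, for Fgf2, and 8 of the 13 had an unadjusted p under 0.05. In the same fit 6 were called at 20 against 12 weeks (35.5% of all probe sets were) and 3 at 20 against 8 weeks (19.3%). After each array was centred on its median only Fgf2 was still called, higher by 0.10 log2 at 20 than at 12 weeks (adjusted p = 0.0289, with 8.59% called) and by 0.09 log2 at 20 than at 8 weeks (adjusted p = 0.0342, with 13.1% called). All Fgf2 values lie below the array median.

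**Figure D2:**
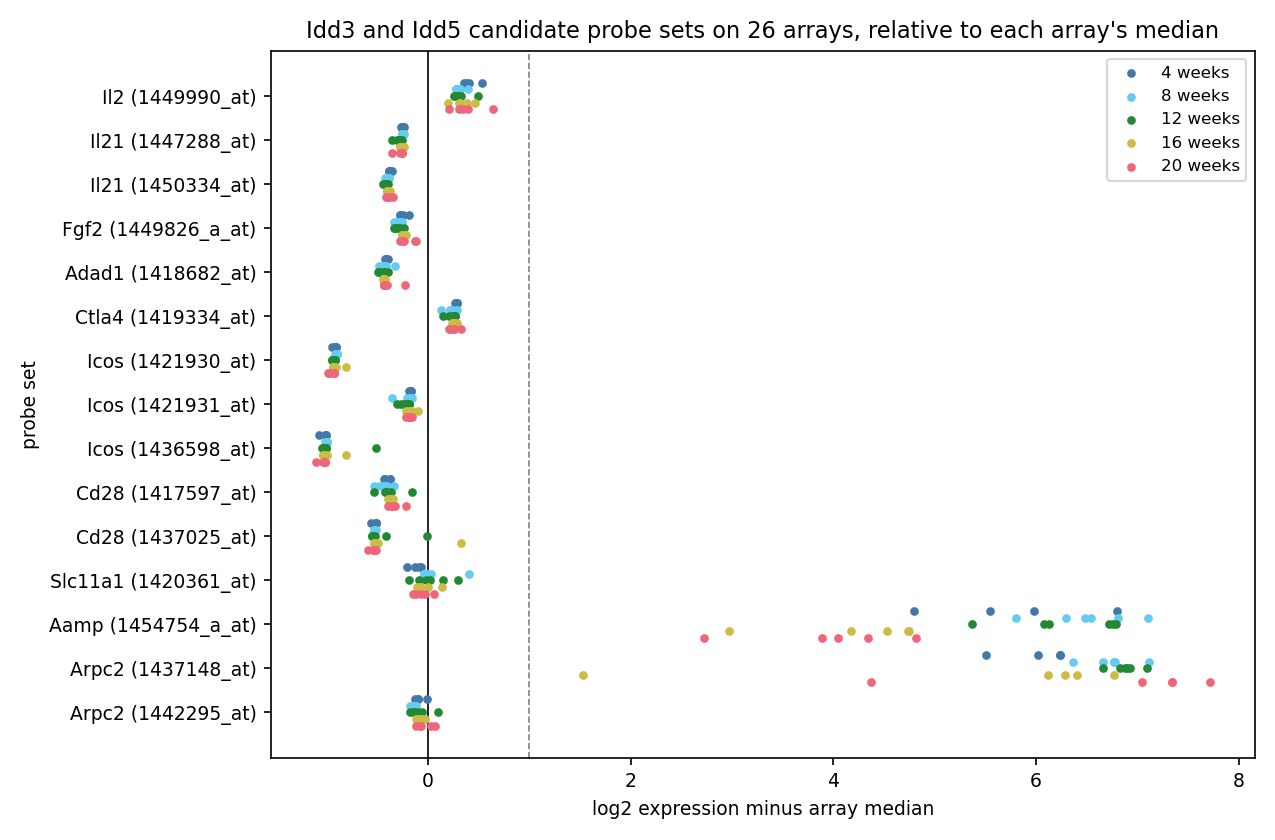
Log2 expression minus the array's own median for the 15 probe sets, with 1 point per array coloured by age, and 26 points per probe set. The solid line is the array median and the dashed line the limit of 1 log2 above it. Aamp 1454754_a_at and Arpc2 1437148_at alone have values to the right of the dashed line, and they are so on all 26 arrays.

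Aamp was the one candidate whose change with age passed the test over all 26 arrays. Probe set 1454754_a_at read 7.82, 9.05, 8.70 and 9.84 at 4 weeks, 8.85 to 10.08 at 8 weeks (median 9.53) and 8.42 to 9.76 at 12 weeks (median 9.43). It read 7.23, 7.74, 7.58, 6.04 and 7.81 at 16 weeks, and 5.94, 7.41, 6.96, 7.15 and 7.81 at 20 weeks. All 10 later arrays lay below all 12 arrays of 8 and 12 weeks, while the 4 week arrays reached from 7.82, next to the highest of the later values, up into the range of 8 weeks. The F test gave an adjusted p of 0.000322, where 14.9% of the 20110 probe sets kept were called. Of the 5 candidate probe sets kept (Il2, Ctla4, Slc11a1, Aamp and 1 of Arpc2), Aamp alone was called.

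The fall lay between 12 and 16 weeks. Aamp averaged 7.28 ± 0.73 at 16 weeks (SD, n = 5) and 9.30 ± 0.52 at 12 weeks (SD, n = 6), a log2 difference of -2.02 ± 0.37 (SE), or 4.06-fold lower (limma adjusted p = 0.0128). In that comparison 2.29% of probe sets were called and 2% were called lower. At 20 weeks Aamp averaged 7.06 ± 0.70 (SD, n = 5), and its difference to 16 weeks was -0.22 ± 0.39 (SE, limma adjusted p = 0.852, with 0.00995% of probe sets called). Its difference at 8 against 4 weeks was 0.66 ± 0.40 (SE, limma adjusted p = 0.431). At 12 against 8 weeks it was -0.21 ± 0.35 (SE), where 0.0199% of probe sets were called. None of these 3 steps passed the test.

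Set against the early ages, Aamp at 20 weeks was lower by 2.45 log2 than at 8 weeks (limma adjusted p = 0.000463, with 26.7% of probe sets called) and by 2.25 log2 than at 12 weeks (adjusted p = 0.00122, with 24.2% called). At 16 weeks it was 2.23 log2 below 8 weeks (adjusted p = 0.00399, with 3.91% called). These comparisons share their arrays and are not separate evidence. Against 4 weeks the Aamp difference at 20 weeks was -1.80 ± 0.41 (SE, limma adjusted p = 0.0204, with 3.11% called), and at 16 weeks -1.57 ± 0.41 (SE, limma adjusted p = 0.0470, with 2.18% called). The call against 4 weeks depended on single arrays. At 20 weeks it was lost when 4 weeks replicate 2 (adjusted p = 0.0706) or 4 weeks replicate 4 (adjusted p = 0.125) was left out, and at 16 weeks it was lost under 27 of the 39 alternatives. The call at 20 weeks was also lost with only the 4 and 20 week arrays in the fit (adjusted p = 0.242), where 0.0497% of probe sets were called, and with no filter and each array centred on its median (adjusted p = 0.0531, with 0.715% called).

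The 2 arrays that stand apart had the lowest Aamp values, 6.04 and 5.94, but the later arrays without them still lay below all arrays of 8 and 12 weeks. Without both, Aamp was lower by 1.71 ± 0.32 log2 at 16 than at 12 weeks (SE, limma adjusted p = 0.00926, with 3.38% called) and by 1.52 ± 0.35 log2 at 20 than at 4 weeks (SE, limma adjusted p = 0.00941). Actin control values at the 3' end minus those at the 5' end, a measure of RNA or cRNA length, averaged 2.90 at 4 weeks, 2.63 at 8, 3.69 at 12, 4.56 at 16 and 3.89 at 20 weeks on the log2 scale. With it as a covariate, a fit added after the data had been seen, the Aamp difference at 16 against 12 weeks was -1.70 (adjusted p = 0.0345). The calls at 20 against 4 weeks (-1.43, adjusted p = 0.0743, with 1.62% called) and at 16 against 8 weeks (-1.51, adjusted p = 0.176) were lost.

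Some marker lists also had lower means at 16 than at 12 weeks. The mean of 10 endothelial and fibroblast markers was 4.66 to 5.08 on the 16 week arrays, below the 5.11 to 5.61 of all 12 week arrays, while at 20 weeks it ran from 4.20 to 5.68, across the range of 12 weeks. Of these 10 genes 7 were tested, and their median difference at 16 against 12 weeks was -0.53 log2, or -0.62 log2 without the 2 arrays that stand apart. Without those arrays 1 of the 7 was called lower, where 2.24% of all probe sets tested were. It was Col1a2, a collagen chain (-1.17 log2, limma adjusted p = 0.0366), which had an adjusted p of 0.0626 with all arrays. The endothelial markers Pecam1, Cdh5, Kdr and Tek were near background on all arrays. The acinar marker mean ran from 7.35 to 10.64 at 16 weeks and from 10.43 to 10.82 at 12 weeks, and the salivary gland marker mean from 3.92 to 9.77 and from 6.39 to 10.56 at these ages. The part of these markers in the Aamp values was not tested.

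Arpc2 was high at all ages, and its course at 16 and 20 weeks and its test results depended on the arrays that stand apart. Probe set 1437148_at read 9.26, 9.09, 8.66 and 9.27 at 4 weeks, 9.42 to 10.08 at 8 weeks (median 9.76) and 9.72 to 10.09 at 12 weeks (median 9.83). It read 9.83, 9.27, 9.16, 4.59 and 9.48 at 16 weeks, and 7.59, 10.12, 10.42, 10.45 and 10.71 at 20 weeks. The 4.59 and the 7.59 are the 2 arrays that stand apart. All 4 week values (9.27 or less) lay below all those of 8 weeks (9.42 or more) and 12 weeks (9.72 or more), ages that hold neither array. Every other pair of ages overlapped with the 2 arrays included, and the limma F test did not pass (adjusted p = 0.290). The SD was 2.18 at 16 weeks and 1.28 at 20 weeks, against 0.14 to 0.29 at the 3 early ages.

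Without those 2 arrays, every 20 week value (10.12 or more) was above every value of the other ages (10.09 or less). Over the remaining 24 arrays the Arpc2 F test passed (limma adjusted p = 0.000125, where 18.9% of 19945 probe sets were called). Arpc2 was then higher by 1.35 ± 0.16 log2 at 20 than at 4 weeks (SE, limma adjusted p = 1.66e-05, with 7.91% called). It was higher by 0.99 ± 0.16 log2 at 20 than at 16 weeks (SE, limma adjusted p = 0.0140, with 0.0702% called). It was also higher by 0.67 ± 0.15 log2 at 8 than at 4 weeks (SE, limma adjusted p = 0.0140, with 3.69% called). With all 26 arrays the same differences were 0.79 ± 0.72, 1.39 ± 0.68 and 0.67 ± 0.70 (SE), and none passed. With array weights the Arpc2 F test passed (limma adjusted p = 0.00863, with 63% called), as did the difference at 20 against 4 weeks (1.19 log2, adjusted p = 0.00245, with 27.3% called). The macrophage marker mean was 6.37 at 20 weeks and 4.72 at 4 weeks, and its part in the Arpc2 values was not tested.

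The second Arpc2 probe set, 1442295_at, ranged from 2.77 to 3.29 and did not follow the first. It was highest on 20 weeks replicate 1, where the first read 7.59, its second lowest value. The rise at 20 weeks therefore rests on 1 probe set of Arpc2.

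**Figure D3:**
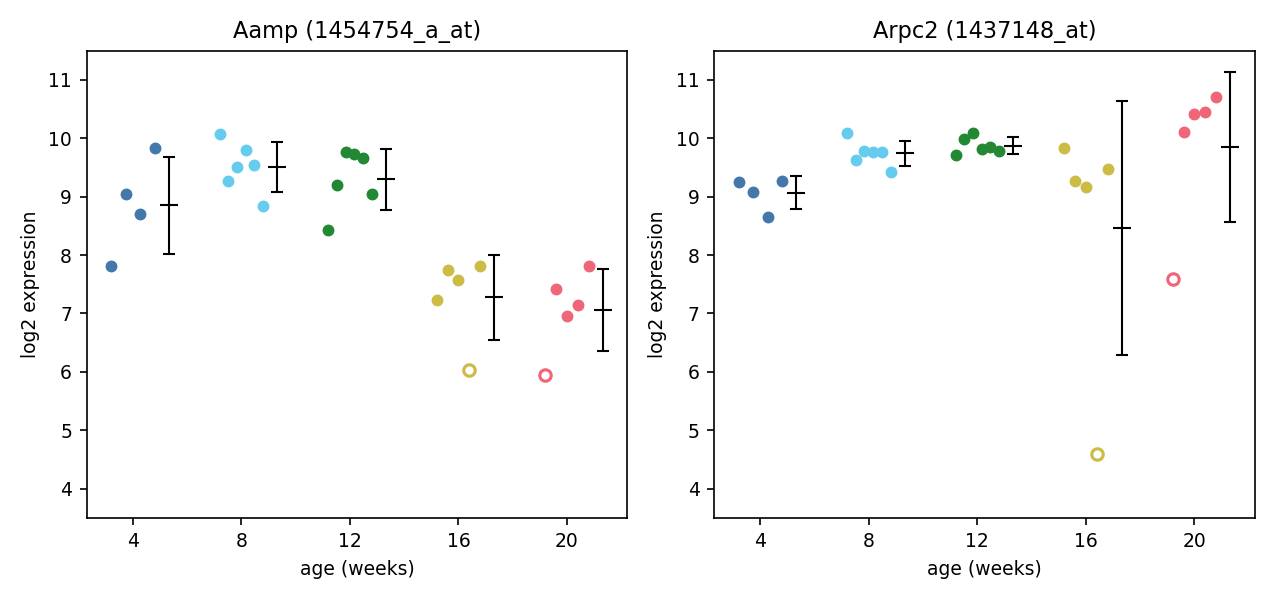
Log2 expression of Aamp 1454754_a_at (left) and Arpc2 1437148_at (right) by age in weeks, with 1 point per array, open points for 16 weeks replicate 4 and 20 weeks replicate 1, and bars for the mean ± SD of all arrays of the age. Axes do not start at 0. Aamp at 16 and 20 weeks does not exceed 7.81, and the filled Arpc2 points at 20 weeks are all above 10.09.

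Arpc2, Aamp and Slc11a1 lie close together on chromosome 1, in this order in RefSeq, with Gpbar1 between Arpc2 and Aamp, and Pnkd, Tmbim1 and Catip between Aamp and Slc11a1. Of the 10 neighbours with a probe set in and around this cluster, 7 were tested and Tmbim1, a membrane protein of the Bax inhibitor motif family, passed the F test (adjusted p = 0.0156). Tmbim1 averaged 7.40 ± 0.34 at 16 weeks (n = 5) and 8.27 ± 0.41 at 12 weeks (SD, n = 6), and its difference at 16 against 12 weeks did not pass (-0.87 ± 0.42 log2, SE). At 20 against 12 weeks, where 24.2% of probe sets were called, 2 of the 7 fell, Tmbim1 by 1.87 log2 (limma adjusted p = 0.00715) and Ctdsp1 by 0.96 log2 (adjusted p = 0.0396). A fall by 20 weeks was thus not particular to Aamp in this cluster. Without the 2 arrays that stand apart Tmbim1 was still called (-1.34 log2, limma adjusted p = 0.0131) and Ctdsp1 was not (-0.62 log2, adjusted p = 0.134). Pnkd, next to Aamp, did not pass the F test (adjusted p = 0.150), and neither did Ctdsp1, next to Slc11a1 (adjusted p = 0.0922). Around Cd28, Ctla4 and Icos 8 neighbours were tested and Ndufs1, a subunit of respiratory complex I, passed (adjusted p = 0.0494). Around Il2 7 were tested and 4932438A13Rik passed (adjusted p = 0.0397). These shares, 1 of 7, 1 of 8 and 1 of 7, are near the 14.9% of all probe sets.

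**Figure D4:**
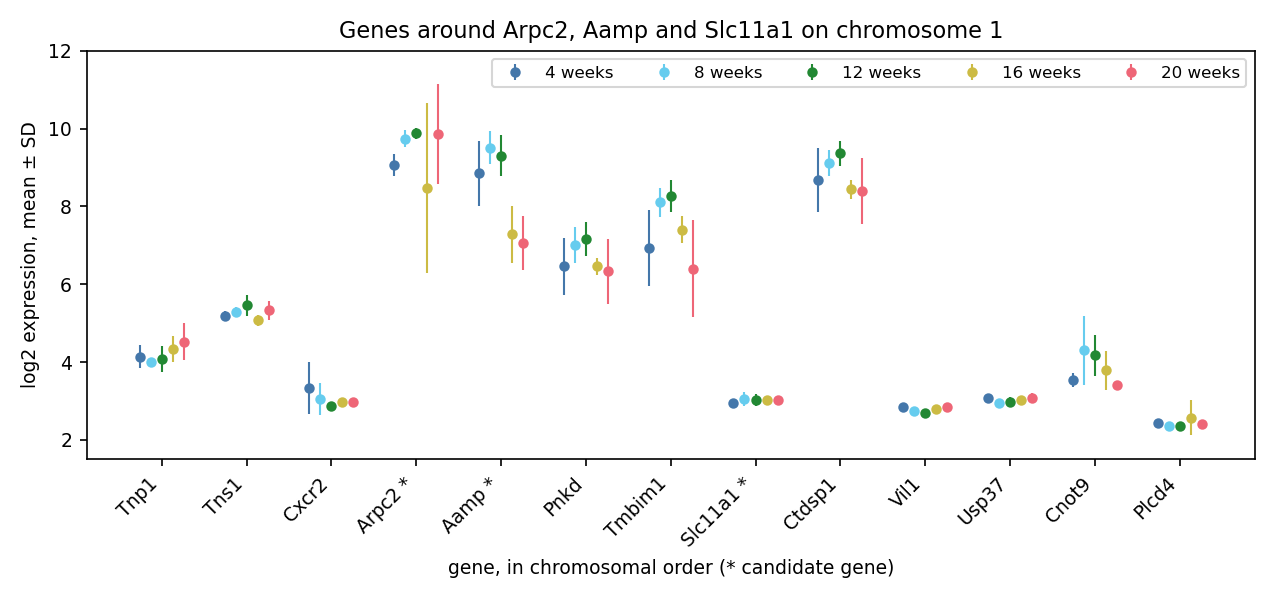
Mean ± SD of log2 expression at the 5 ages (colours) for Arpc2, Aamp, Slc11a1 and their neighbours in chromosomal order, all 26 arrays. Levels of different genes come from different probe sets and are not to be compared. Aamp is at 7.28 at 16 weeks, against 9.30 at 12 weeks, with bars that do not meet, whereas Slc11a1 stays at 2.95 to 3.06 at all ages.

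The pathways of the candidates were followed through lists of their receptors, ligands and partners. Of 17 genes of IL-2 and IL-21 reception and signalling with a probe set, 8 were near background on all arrays, among them Il2ra, Il2rb, Il21r, Jak3 and Foxp3. Of the 9 tested, Stat5a, a transcription factor activated by IL-2, passed the F test (adjusted p = 0.0321), with a mean of 4.57 at 16 weeks and 5.27 at 12 weeks. A share of 1 in 9 is no more than the 14.9% of all probe sets kept that passed. The ligands and partners of CD28 were near background in 10 of 14 genes, and none of the 4 tested passed the limma F test (1 at an unadjusted p under 0.05). Cd80, a ligand of both CD28 and CTLA-4, was above background with means of 5.15 to 5.44 and an adjusted p of 0.641.

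Of 15 genes of FGF reception and feedback, 11 were tested and Spry2 (adjusted p = 0.0418), an inhibitor of receptor signalling, and Fgf7 (adjusted p = 0.0494) passed, a share near the 14.9% of all probe sets. Spry2 averaged 8.53 at 16 weeks and 6.96 at 12 weeks. Without the 2 arrays that stand apart Spry2 was higher by 1.65 log2 at 20 than at 4 weeks (limma adjusted p = 0.00455). In that fit 4.95% of all probe sets were called higher. With all 26 arrays no gene of the FGF list was called in that comparison, where 3.11% of probe sets were. Of the 15 genes of the phagosome and iron handling, 12 were tested and Rab7, Cyba and Lamp2 passed, beside 14.9% of all probe sets. Cyba, a subunit of the phagocyte oxidase, averaged 5.82 at 8 weeks and 3.12 at 4 weeks, a difference of 2.70 log2 (limma adjusted p = 0.0424). Slc11a1, which works in the same compartment, differed by 0.10 ± 0.09 log2 (SE) in that comparison.

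Of the other genes of the Arp2/3 complex and its activators, 12 of 14 were tested and 1 passed, again beside 14.9% of all probe sets. Coro1b, a coronin that acts on Arp2/3 filaments, passed the F test (adjusted p = 0.00621), with a mean of 4.58 at 16 weeks and 6.22 at 12 weeks. The subunits Arpc1a (adjusted p = 0.104) and Arpc5 (adjusted p = 0.114) did not. Without the 2 arrays that stand apart, 3 of these genes were called higher at 20 than at 4 weeks, Arpc5l by 1.02 log2, Wasl by 0.78 log2 and Cttn by 0.81 log2, where 4.95% of all probe sets were called higher. These 3 names were chosen after their values were seen. Without those 2 arrays the median difference over the list was 0.11 log2, and 0.0061 log2 over all probe sets kept. With all 26 arrays no gene of the list was called in that comparison, where 3.11% of probe sets were. The median difference over the list was then 0.0080 log2, and 0.011 log2 over all probe sets kept. Of the 6 genes with an adenosine deaminase domain like that of Adad1, 3 were tested and none passed the limma F test (1 at an unadjusted p under 0.05). Of 7 male germ cell markers, 3 were near background on all arrays and none of the 6 tested passed (2 at an unadjusted p under 0.05).

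The genes whose course over the 26 arrays was most like that of Aamp were Kars (Pearson r = 0.951), Tmem39a (r = 0.944) and Pex11g (r = 0.940). Without the arrays that stand apart the same values were 0.923, 0.927 and 0.914. For Arpc2 they were Grn (r = 0.968), Clta (r = 0.959) and Ndfip1 (r = 0.954), and without those arrays the values were 0.772, 0.706 and 0.673. For Ctla4 they were Trp53rkb (r = 0.967), Pibf1 and Barhl1 (r = 0.962 each), all 3 of them near background on all 26 arrays. For Il2 they were Rag2 (r = 0.927), Adam6b (r = 0.906) and P2rx3 (r = 0.899), and for Slc11a1 Isl1 (r = 0.707), Myd88 (r = 0.694) and 2810021J22Rik (r = 0.647). Without the arrays that stand apart the values were 0.858, 0.832 and 0.810 for Il2 and 0.953, 0.956 and 0.945 for Ctla4. Those for Slc11a1 were 0.701, 0.718 and 0.638. Arrays of an age share their stage and each array its overall spread, so these are descriptions.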

How the data were processed

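The authors deposited a single table of log2 expression values for 45101 probe sets on 26 arrays. The submitters' processing notes name RMA and GCRMA, with no role or version for either. No source used here says which of them made the log2 values. The values were used as deposited. Per the labels' protocols, total RNA from an RNeasy kit was turned into biotinylated cRNA. Arrays were grouped by the age in their titles. Precision is limited by the number of arrays.

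Gene symbols came from the annotation table of the array platform, which lists 34958 probe sets with 1 gene symbol and 932 with several, and leaves 9211 out. Those with 1 symbol that lay above their array's median on at least 4 arrays were kept, 20110 in all and 5 of the 15 described here. All 26 arrays entered 1 linear model per probe set, with 1 mean for each age, in limma 3.58.1 under R 4.3.3 (lmFit and eBayes). An F test compared the ages and two-sided contrasts compared pairs of ages, later minus earlier. Benjamini-Hochberg adjustment ran over all probe sets kept, and a probe set was called at an adjusted p under 0.05. The candidate genes, lists and tests were chosen with earlier results of these data known, so no list is independent evidence.

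All probe sets of the 10 genes are given. From the lists, up to 4 genes with the smallest F test p were named, and for each kept candidate the 3 genes with the highest Pearson r. Interval neighbours were the genes between the outermost candidates of each cluster and up to 5 protein-coding genes beyond each end, by RefSeq order. For a gene of a list, the probe set with the highest mean stood for it.

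Same replicate numbers at different ages name different animals. Deviations of same-numbered arrays from their age means had a median correlation of -0.0771 over 47 pairs, so the numbers do not pair the arrays. Besides leaving out each of the 26 arrays in turn, 13 alternatives changed the normalization or centring, the filter, the probe set per gene, the eBayes options, the array weights, the arrays entering the fit, the block or a covariate.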

Additional observations from a re-analysis of the deposited data

Results flagged for a closer look

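Within each age, the highest and lowest array of each probe set were compared with the others, which gave 8 values far from the rest in 75 groups on 6 arrays. Chance alone marks about 1 in 20 groups. For Arpc2 probe set 1437148_at these were 4.59 on 16 weeks replicate 4 and 7.59 on 20 weeks replicate 1, both the lowest of their age, on the arrays that also had low acinar markers. For Cd28 probe set 1437025_at they were 2.93 on 12 weeks replicate 4 and 3.37 on 16 weeks replicate 3, both the highest of their age. For Icos probe set 1436598_at they were 2.43 on 12 weeks replicate 4 and 2.26 on 16 weeks replicate 4, the highest of their age, and for Icos probe set 1421931_at 2.62 on 8 weeks replicate 1, the lowest. For Slc11a1 it was 3.43 on 8 weeks replicate 3, the highest. The Cd28, Icos and Slc11a1 values are near background.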

How the results depend on the processing

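Aamp kept its call in the F test and at 16 against 12 weeks under all alternatives, with differences between -2.20 and -1.48 log2. The number of candidate probe sets called in the F test was 1, and it was 3 with array weights (Aamp, Ctla4, Arpc2; 63% of all probe sets passed) and 2 without both arrays that stand apart (18.9% passed). At 8 against 4 weeks Ctla4 was the 1 called with weights (34.2% of all) and Arpc2 the 1 called without the arrays (3.69%), against 0. At 20 against 16 weeks 1 was called without both arrays (0.0702% of all), against 0 (0.00995%). At 20 against 4 weeks 2 were called with weights (27.3% of all) and 2 without the arrays (7.91%), against 1 (3.11%). It was 0 with only the ages compared (0.0497% of all), with no filter and centring on the array median (0.715%), or with the actin difference as covariate (1.62%). The last pair of settings was chosen after seeing the data. Leaving out 1 array at a time gave 0 to 1 there, and it gave 1 in the F test, 1 at 16 against 12 weeks and 0 at 8 against 4, 12 against 8 and 20 against 16 weeks. With the replicate number as a block the counts were 1 in the F test, 1 at 16 against 12 and 1 at 20 against 4 weeks, as without it. Differences that were not called turned their sign in a few fits. For Aamp this was 12 against 8 weeks with the actin covariate (0.19) and 20 against 16 weeks with quantile normalization (0.15), the array SD as covariate (0.064) or without 20 weeks replicate 1 (0.054, in a range of -0.53 to 0.054 as each array was left out). For Arpc2 it was 8 against 4 weeks (-0.097) and 12 against 8 weeks (-0.042) with the array SD. The cause was not tested. Low signal limits 13 of the 15 probe sets, which were near background on every array. Whether their readings differ from background was not tested, since no detection calls were used.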
